A study of Mus musculus with 15 samples.

Results

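Brown and beige thermogenic genes are the genes that fat cells switch on when they produce heat. The set described here was defined by symbol as Ucp1, Cidea, Elovl3, Ppargc1b and Dio2. Of these 5 genes, 4 were measured among 14272 named genes, and Elovl3, a fatty acid elongase, is not analysed here. The set was proposed with results of the weekly treatment in view, so the weekly values below are a description without a test. Earlier results of these data were known at that point, so the daily p-values of its genes may not be independent of the choice. The measurements are RNA sequencing of quadriceps muscle from DBA/2J-mdx males. These mice lack dystrophin and serve as a model for Duchenne muscular dystrophy. The dystrophin defect and the DBA/2J background were shared by all 15 libraries, which fell into 3 groups of 5. Vehicle mice received DMSO by intraperitoneal injection 7 times a week. Weekly mice received the synthetic glucocorticoid prednisone at 1 mg/kg, 1 time a week, together with 6 vehicle injections a week, and daily mice received the same dose, 1 mg/kg, in each of 7 injections a week. The protocol in the labels states an age of 6 months and the sample labels about 7 months, and the sources used here do not give the length of treatment. The labels do not state that each library is a separate animal, so p-values cover only how these samples vary, and that variation may be technical.

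In brown and beige adipocytes, noradrenaline acts on beta-adrenergic receptors and raises cyclic AMP, which induces a set of genes for heat production. UCP1, the central effector, lets protons leak across the inner mitochondrial membrane, so that fuel is burned as heat instead of making ATP. Deiodinase 2 (Dio2) converts the prohormone T4 to active T3 inside the cell, the coactivator PGC-1 beta (Ppargc1b) drives mitochondrial and lipid genes, and CIDEA sits on lipid droplets and is a classical marker of brown fat. Skeletal muscle fibres also express Ppargc1b and Dio2, whereas Ucp1 and Cidea are regarded as adipocyte genes.

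In GRCm38 with the GENCODE M21 annotation, all 4 are protein-coding genes. Ucp1 lies at chr8:83290352-83298452 on the plus strand and overlaps 0 other annotated genes. Dio2 lies at chr12:90724552-90738438 on the minus strand and shares 238 bases with Gm26512 on the opposite strand. Whether the counting used strand is not given, so reads in such a stretch cannot be assigned with certainty. The 250 bases before the RefSeq start of Ucp1 and Dio2 are shown because both genes are textbook targets of the cyclic AMP signal (build GRCm38.p6, each read along the gene's strand). Capitals mark the cyclic AMP response element (CRE, TGACGTCA) or its core (TGACG), and the core motif of nuclear receptors (AGGTCA).
Ucp1, chr8:83290098-83290347, plus strand: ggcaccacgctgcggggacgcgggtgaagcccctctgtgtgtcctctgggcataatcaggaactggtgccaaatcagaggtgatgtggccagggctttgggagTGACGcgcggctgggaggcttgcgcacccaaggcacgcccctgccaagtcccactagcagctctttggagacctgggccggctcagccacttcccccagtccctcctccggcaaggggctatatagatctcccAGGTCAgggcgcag
Dio2, chr12:90739039-90739288, minus strand: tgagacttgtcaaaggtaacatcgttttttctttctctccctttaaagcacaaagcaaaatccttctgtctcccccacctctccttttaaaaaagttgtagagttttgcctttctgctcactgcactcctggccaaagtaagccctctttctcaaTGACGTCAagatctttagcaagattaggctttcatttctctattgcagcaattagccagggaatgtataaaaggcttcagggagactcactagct

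Positions are counted from the RefSeq start, with -1 the base just before it. This start lies 4 bases upstream of the GENCODE start for Ucp1 and 600 bases upstream for Dio2, so the Dio2 window is not next to the GENCODE start. The Ucp1 window held the CRE core from -147 to -143 and the nuclear receptor core from -14 to -9. The Dio2 window held the whole CRE from -95 to -88, which contains its core on both strands, and a TATA box (TATAAA) from -30 to -25. The background was 32817 RefSeq windows of the same length outside chromosome 18, searched on both strands. Of these, 1.55% held the whole CRE, 17.7% its core and 12.4% TATAAA, and 4604 windows held AGGTCA. The glucocorticoid receptor core AGAACA, present in 16.1% of windows, was found in neither. Neither window held the glucocorticoid receptor palindrome, AGAACA and TGTTCT spaced by 3 bases (0.00914% of windows), or the CCAAT box (33.8%). Direct repeats of AGGTCA spaced by 1 base, the PPAR element (0.0335%), or by 4 bases, the thyroid hormone receptor element (0.0152%), were not found either. These matches describe letters and not binding.

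Recovered depth was 2780768 to 11052552 reads per library, so 3 reads corresponded to 0.271 to 1.08 CPM (reads scaled to a common library total), a limit that covers counting error only. Both weekly 4, the shallowest library, and daily 3 stood apart. The mitochondrial ribosomal RNA mt-Rnr2 held 0.572% of the named-gene values in weekly 4 and 6.26% to 9.48% in its group otherwise. In daily 3, Gm26924 held 20.6% and Lars2 7.82%. Other libraries differed less: vehicle libraries held 12.7% to 13.5% mt-Rnr2, above every weekly library. Gm26924 and Lars2 held 3.04% and 1.62% in daily 5, 1.42% and 0.667% in daily 1, and 0.556% and 0.257% in weekly 2. Their highest vehicle values were 0.195% and 0.146%, and daily 2 and daily 4 did not exceed these. Differences below are on the scale log2(CPM + 0.5), with the standard error (SE) of a limma fit over all 15 libraries, and understate the change of low genes. All contrasts share libraries with each other. The median over 14059 genes tested was 0.17 for weekly against vehicle, -0.08 for daily against vehicle and -0.24 for daily against weekly, and TMM scaling, a trimmed mean of ratios between libraries, moved these medians to 0.01, 0.00 and 0.01.

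Ucp1 was close to the detection limit in vehicle muscle and spanned a 155-fold range among the weekly libraries. Vehicle libraries 1 to 5 measured 0.730, 0.585, 0.687, 0.553 and 0.113 CPM, which are 6, 5, 6, 5 and 1 reads. Weekly libraries 1 to 5 measured 77.8, 9.77, 47.3, 1.44 and 223 CPM, or 583, 108, 470, 4 and 1726 reads. Every weekly library lay above every vehicle library, but weekly 4 did so with only 4 reads. The other 4 weekly libraries rest on at least 108 reads each, and weekly 5 stood highest. Daily libraries 1 to 5 measured 3.46, 0.951, 0.620, 1.05 and 1.66 CPM, or 25, 7, 4, 5 and 12 reads. Of the daily libraries, 4 lay above all vehicle libraries and daily 3 lay inside their range. Daily 1 and daily 5 exceeded weekly 4, and all daily libraries lay below the other 4 weekly libraries.

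Mean Ucp1 levels were 0.534 ± 0.246 CPM for vehicle, 71.8 ± 89.7 CPM for weekly and 1.55 ± 1.13 CPM for daily (SD, n = 5 each). The weekly SD exceeded the weekly mean, which was 34.1 CPM without weekly 5 and 89.4 CPM without weekly 4. Weekly against vehicle differed by 4.79 (SE 0.78), by 5.75 without weekly 4 and by 4.04 without weekly 5. The share of all tested genes with every weekly library above every vehicle library was 11.8%, from which nothing is read here because that contrast helped to choose the set. Daily against vehicle differed by 0.88 (SE 0.78, 95% interval -0.73 to 2.49), which did not pass in the fit across all genes (limma adjusted p = 0.618, Benjamini-Hochberg). An exact two-sided permutation test of this single gene over the 10 libraries gave p = 0.0238, where 0.00794 is the smallest p that 5 against 5 allows. Without vehicle 5, the library with 1 read, the exact permutation p was 0.0714 and the difference 0.70. This is 1 of 4 such tests, which were not adjusted for their number. Ucp1 entered the fit only through the weekly group: 5 weekly, 3 daily and 0 vehicle libraries reached 1 CPM, and Ucp1 did not pass the filter on the vehicle and daily libraries alone.

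Cidea (chr18:67343604-67367785, plus strand) followed the same order of weekly libraries as Ucp1. It shares 500 bases with B430212C06Rik on the opposite strand, with the same uncertainty as for Dio2. Vehicle libraries 1 to 5 measured 1.34, 1.87, 1.72, 1.99 and 3.84 CPM, and weekly libraries 1 to 5 measured 56.2, 8.96, 42.5, 2.52 and 97.6 CPM. Weekly 4, with 7 reads, lay inside the vehicle range, while the other 4 weekly libraries lay above it. Daily libraries 1 to 5 measured 3.05, 1.63, 0.155, 1.46 and 1.52 CPM, and daily 3 rests on 1 read. The daily values spread over the vehicle range and below it.

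Mean Cidea levels were 2.15 ± 0.976 CPM for vehicle, 41.6 ± 38.6 CPM for weekly and 1.56 ± 1.02 CPM for daily (SD, n = 5 each). Weekly against vehicle differed by 3.20 (SE 0.64), by 3.94 without weekly 4 and by 2.68 without weekly 5, when the weekly mean was 27.5 CPM. Daily against vehicle differed by -0.48 (SE 0.64, 95% interval -1.82 to 0.85, limma adjusted p = 0.759), and the exact permutation p was 0.325. Without daily 3 the daily difference was -0.11. The interval allows a fall and a rise alike, so no difference was detected. Its width reflects an SE pooled over all 3 groups. With only vehicle and daily libraries the SE was 0.25 and Cidea was still not called (limma adjusted p = 0.226).

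**Figure D1:**
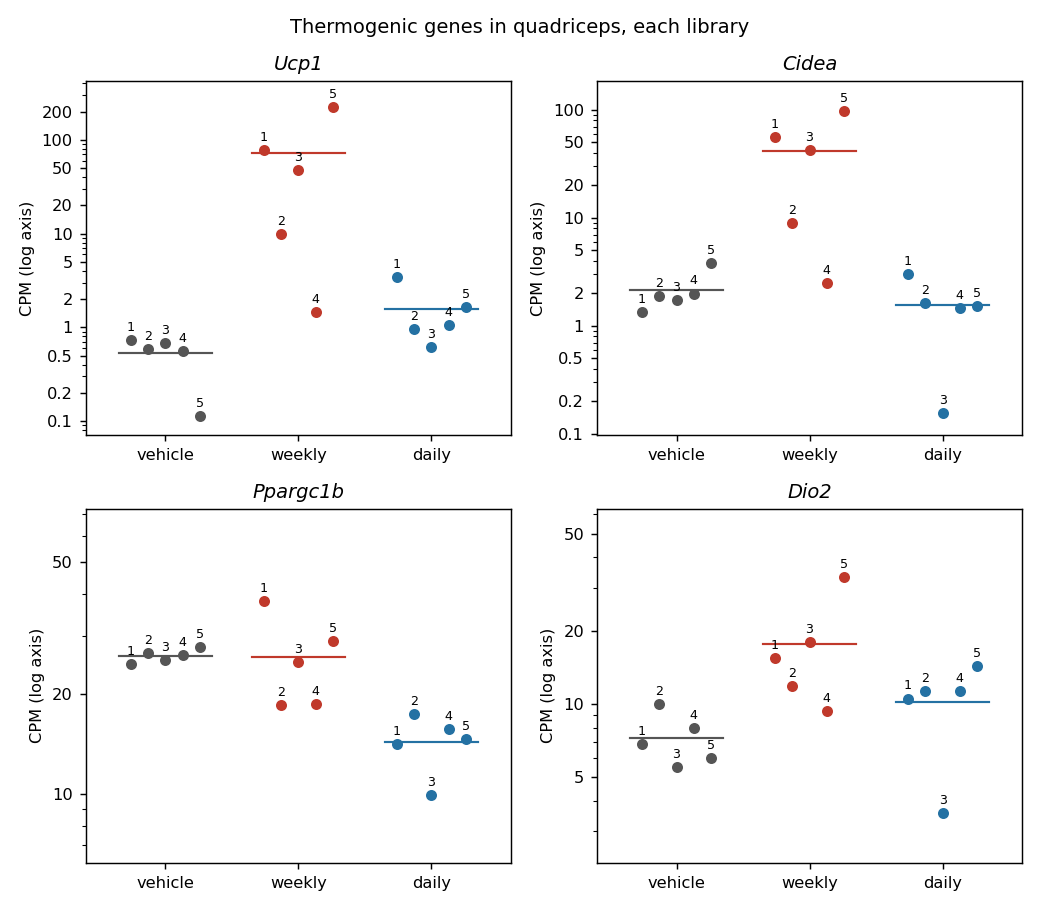
Level of Ucp1, Cidea, Ppargc1b and Dio2 in CPM (vertical log axis) in each of the 15 libraries, with the replicate number at each point and a horizontal line at the group mean. Ucp1 and Cidea spread widely among the weekly libraries, from 1.44 to 223 CPM and from 2.52 to 97.6 CPM, while all 5 daily Ppargc1b values lie below all vehicle values.

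Dio2 was moderately higher in weekly muscle, with less spread than Ucp1 or Cidea. Vehicle libraries 1 to 5 measured 6.82, 9.95, 5.50, 7.96 and 5.99 CPM, and weekly libraries 1 to 5 measured 15.5, 11.9, 17.9, 9.35 and 33.3 CPM. Weekly 4 lay inside the vehicle range and the other 4 weekly libraries above it. Daily libraries 1 to 5 measured 10.5, 11.3, 3.56, 11.3 and 14.3 CPM, so that 4 lay above all vehicle libraries and daily 3 below all of them.

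Mean Dio2 levels were 7.24 ± 1.78 CPM for vehicle, 17.6 ± 9.37 CPM for weekly and 10.2 ± 3.97 CPM for daily (SD, n = 5 each). Weekly against vehicle differed by 1.12 (SE 0.31), by 1.30 without weekly 4 and by 0.86 without weekly 5, and the highest weekly library was 3.56 times the lowest. Daily against vehicle differed by 0.37 (SE 0.31, 95% interval -0.28 to 1.02, limma adjusted p = 0.595), with an exact permutation p of 0.325. The call for the single gene turned on daily 3. Without it the difference was 0.69 with an exact permutation p of 0.0159, while the fit across all genes gave a limma adjusted p of 0.162, or 0.0292 when weekly 4 was left out as well.

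Ppargc1b (chr18:61298136-61400431, minus strand, 0 overlapping genes) was lower in daily muscle, the only 1 of the 4 genes called in that comparison. Vehicle libraries 1 to 5 measured 24.6, 26.6, 25.3, 26.3 and 27.8 CPM, and daily libraries 1 to 5 measured 14.1, 17.4, 9.91, 15.7 and 14.7 CPM. All 5 daily libraries lay below all 5 vehicle libraries. Weekly libraries 1 to 5 measured 38.2, 18.5, 25.0, 18.7 and 28.9 CPM, with 2 above, 2 below and 1 inside the vehicle range. The order of the weekly libraries, 1, 5, 3, 4 and 2 from high to low, was not that of Ucp1 and Cidea, 5, 1, 3, 2 and 4.

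Mean Ppargc1b levels were 26.1 ± 1.24 CPM for vehicle, 25.9 ± 8.16 CPM for weekly and 14.4 ± 2.78 CPM for daily (SD, n = 5 each). Daily against vehicle differed by -0.86 (SE 0.18, 95% interval -1.25 to -0.48, limma adjusted p = 0.0078), and the exact permutation p was 0.00794, the smallest possible. The vehicle libraries lay close together, with an SD of 0.07 in log2(CPM + 0.5) against 0.30 for daily and 0.43 for weekly libraries. The permutation test treats libraries as exchangeable, which this unequal spread does not bear out. Both p-values are therefore limited to these samples. Without daily 3 the difference was -0.74 (limma adjusted p = 0.0152). Over all genes tested, 3.89% were called in daily against vehicle, 1.76% higher and 2.13% lower. Every daily library was below every vehicle library for 8.82% of genes and above for 2.45%. The count of 1 in 4 is too small to set against that background, and the genes were chosen with earlier results of these data known. Weekly against vehicle differed by -0.07 (SE 0.18).

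Daily against weekly, the 4 genes differed by -3.91 (Ucp1), -3.68 (Cidea), -0.80 (Ppargc1b) and -0.74 (Dio2). All 5 daily Ppargc1b values lay below all 5 weekly values, as for 6.98% of all genes, whereas the other 3 genes overlapped between the treatments. By group mean, weekly was the highest group for Ucp1, Cidea and Dio2. The lowest position was held by vehicle for Ucp1 and Dio2 and by daily for Cidea and Ppargc1b. Vehicle and daily levels of Ucp1, Cidea and Dio2 were not called different in the fit across all genes. The SE of that fit pools the spread within all 3 groups, including the wide weekly group. With only vehicle and daily libraries, the SE was 0.25 for Cidea (limma adjusted p = 0.226) and 0.18 for Dio2 (limma adjusted p = 0.171).

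The receptors and kinases that feed this programme were examined as a list of 14 genes of adrenergic and cyclic AMP signalling, of which 12 were tested. This list and those below were chosen with earlier results of these data known. Most genes named from them had the smallest p in the same comparisons. Their counts and p-values therefore describe these libraries and are not independent support. In weekly against vehicle 4 of the 12 rose and 0 fell, and the list's median was 0.38. Over all genes 6.99% rose and 1.07% fell, the background for every weekly count below. Leaving out a library moved this background too. Without weekly 4, 1311 of 13959 genes rose with weekly treatment and 893 fell with daily treatment. Without daily 3, 1996 of 14040 genes rose with weekly treatment. Adrb3, the beta-3 adrenergic receptor of adipocytes, rose from a mean of 4.91 to 19.4 CPM (1.51, SE 0.43, limma adjusted p = 0.0338). Its weekly libraries 1 to 5 measured 16.3, 11.5, 19.1, 3.96 and 46.2 CPM, and only weekly 4 did not exceed the vehicle range of 3.84 to 6.33 CPM. Prkar2b, a regulatory subunit of protein kinase A, rose by 1.59 (limma adjusted p = 0.0237). Rgs2, which dampens G protein signalling, rose by 1.18 (limma adjusted p = 0.00034) in 5 of 5 libraries, and Mapk14, the p38 alpha kinase, was the other. With TMM scaling the calls of Adrb3 and Prkar2b ended. In daily against vehicle 0 of 12 genes were called in either direction (median -0.23), and Adrb3 measured -1.18 (limma adjusted p = 0.148). Without weekly 4 in the shared fit, 3 of 12 were called lower with daily treatment, namely Adrb3, Pde3b and Prkar2b (limma adjusted p = 0.002 for Adrb3).

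Of 24 genes of brown and beige identity, 17 were tested. Weekly treatment raised 4 and lowered 0, beside 6.99% of all genes that rose and 1.07% that fell. The list's median was 0.21, near the 0.17 of all genes, and 12 of the 17 differences were positive. Without weekly 4 it raised 6, where 1311 of 13959 genes rose, and the list's median was 0.14 beside 0.15 for all genes. Otop1, a proton channel of brown fat, rose from 0.669 to 8.77 CPM (2.44, SE 0.50, limma adjusted p = 0.0035). Its vehicle mean lay below the 1 CPM of the filter, which the 5 weekly libraries met alone. The p of Otop1 is therefore not independent of the filter. Kcnk3, a potassium channel of brown adipocytes, rose from 2.49 to 12.2 CPM (1.72, SE 0.45, limma adjusted p = 0.0202), and Ntrk3, a neurotrophin receptor, from 1.11 to 8.85 CPM (2.23, SE 0.36, limma adjusted p = 0.00052). Each of these was above all vehicle values in 5 of 5 weekly libraries, but for Otop1 the weekly 4 value, 1.08 CPM, rests on 3 reads and barely exceeds the highest vehicle value of 1.05 CPM. Letmd1, a mitochondrial protein needed for brown fat function, was the fourth, and its call ended with TMM scaling, where Tbx15 was called lower. Prdm16, the transcriptional regulator of brown fat fate, measured 0.56 (SE 0.27, limma adjusted p = 0.204). Its weekly libraries 1 to 5 measured 6.01, 3.98, 6.34, 2.52 and 10.4 CPM against a vehicle range of 2.31 to 5.15 CPM. With daily treatment 0 of 17 were called (median -0.32), and without weekly 4 in the shared fit 6 were called lower. Daily against weekly, 5 of 17 were lower, beside 8.24% of all genes, among them Kcnk3 by -3.07 (limma adjusted p = 0.00037) and Cpt1b, the muscle and brown fat carnitine palmitoyltransferase, by -0.55 (limma adjusted p = 0.0408). Several genes of the list, such as Cpt1b, are also expressed by muscle fibres.

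PGC-1 coactivators and their partners gave a mixed picture beside Ppargc1b. Of 16 genes tested, 2 rose with weekly treatment, namely Pprc1, the PGC-1-related coactivator, by 0.73 (limma adjusted p = 0.0215) and the fatty acid receptor Ppara by 1.04 (limma adjusted p = 0.0172). The list's median was 0.20, near the 0.17 of all genes, of which 6.99% rose. Ppargc1a, the closest relative of Ppargc1b, measured -0.13 with weekly treatment (limma adjusted p = 0.661) and -0.24 with daily treatment (SE 0.17, limma adjusted p = 0.495). Its daily libraries 1 to 5 measured 50.3, 41.2, 25.4, 41.4 and 30.8 CPM against a vehicle range of 41.8 to 47.7 CPM, so unlike those of Ppargc1b they overlapped with vehicle. Whether the daily differences of Ppargc1a and Ppargc1b themselves differ was not tested. With daily treatment 0 of 16 were called (median -0.12), and with TMM scaling Pprc1 and Ppard were called higher and Rxra lower. Rxra was also called lower with daily treatment without weekly 4.

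The relatives of UCP1 were mostly not called. Among 7 mitochondrial carriers, 1 rose with weekly treatment, beside 6.99% of all genes, and the median was 0.33. It was Slc25a5 (0.75, limma adjusted p = 0.017), an adenine nucleotide carrier like Slc25a4 and not an uncoupling protein. Without weekly 4 the median was 0.09, below the 0.15 of all genes. By library, the median over the list was 0.72 in weekly 4 and 0.00 to 0.11 in the other libraries of its group. Ucp2 measured 0.46 (limma adjusted p = 0.312) and was highest in weekly 4, at 152 CPM, where the rest of the group measured 31.5 to 60.1 CPM. Ucp3, the muscle homologue, measured -0.61 (SE 0.22, limma adjusted p = 0.0935). Its weekly libraries 1, 2, 3 and 5 measured 62.3, 76.4, 92.2 and 73.0 CPM, below the vehicle range of 134 to 146 CPM, while weekly 4 measured 191 CPM above it. With TMM scaling, and without weekly 4, Ucp3 was called lower. With daily treatment 0 of 7 carriers were called (median 0.01).

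Genes that handle thyroid hormone were examined beside Dio2. Of 14 listed, 10 were tested, and 1 rose with each treatment. Thrsp, a thyroid hormone and lipogenesis target, rose from 9.44 to 152 CPM with weekly treatment (3.40, SE 0.46, limma adjusted p = 0.00007), and all 5 weekly libraries exceeded vehicle. Hr, a corepressor of the thyroid hormone receptor, rose with daily treatment from 43.6 to 90.7 CPM (1.04, SE 0.18, limma adjusted p = 0.00147), in 5 of 5 libraries. The medians of this list, 0.21 and -0.08, were near those of all genes. Over all genes 6.99% rose with weekly and 1.76% with daily treatment.

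Elovl6, the elongase of saturated fatty acids, had the profile most like that of Ucp1. It measured 137, 36.8, 246, 18.0 and 377 CPM in weekly libraries 1 to 5, against 3.43 to 4.92 CPM in vehicle and 2.17 to 9.42 CPM in daily libraries. The rise with weekly treatment was 4.31 (SE 0.56, limma adjusted p = 0.00005). Of 9 elongases and desaturases tested from a list of 16, weekly treatment raised 5 (median 0.90), including the desaturases Scd1 by 2.79 (limma adjusted p = 0.00052) and Scd2 by 1.41 (limma adjusted p = 0.00006), together with Elovl5 and Hsd17b12. The same 5 were called with TMM scaling. Over all genes 6.99% rose with weekly and 1.76% with daily treatment in the main fit. Daily treatment raised 1 of 9, Scd2 by 0.70 (limma adjusted p = 0.0359), and Elovl6 measured 0.28 (limma adjusted p = 0.853).

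**Figure D2:**
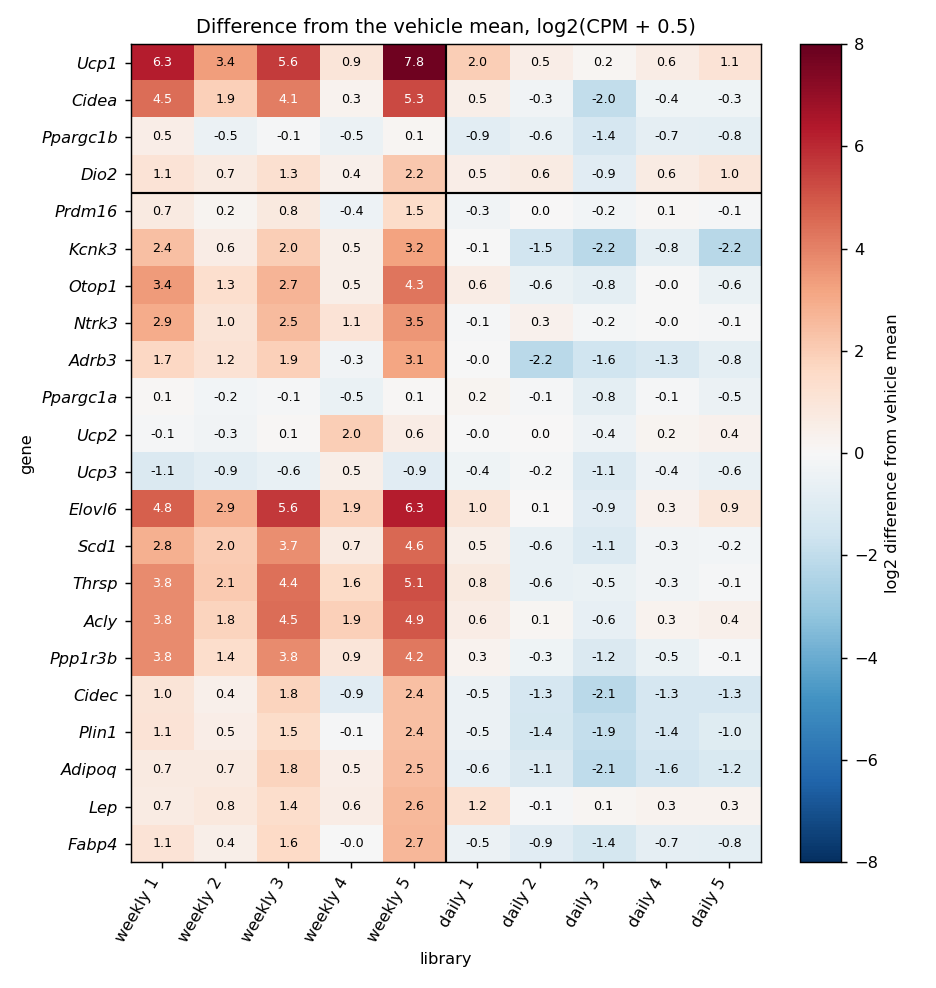
Difference of each weekly and daily library from the vehicle mean in log2(CPM + 0.5), as colour and number, for the 4 thermogenic genes (top) and related genes named in the text. Ucp1 reaches 7.8 in weekly 5 and 0.9 in weekly 4, and Elovl6, Scd1, Thrsp and Acly are likewise highest in weekly 5, while Ucp3 is below 0 in 4 of the weekly libraries and above it in weekly 4.

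Lipid droplet genes were examined because CIDEA acts on droplets. Weekly treatment raised 5 of 15 tested (median 0.72), namely Plin1, Plin2, Plin3, Mgll and Bscl2. Over all genes 6.99% rose with weekly treatment and 2.13% fell with daily treatment. Plin2, a coat protein of lipid droplets in many cell types, rose by 1.09 (limma adjusted p = 0.0029) in 5 of 5 libraries, and Mgll, the monoglyceride lipase, by 0.90 (limma adjusted p = 0.0282). With TMM scaling Plin2 was the only 1 of these still called, whereas without weekly 4 a total of 9 of 15 were called, with Cidec, Pnpla2, Lipe and G0s2 added. Cidec, the CIDE protein of white fat, measured 0.94 (limma adjusted p = 0.152) and 1.41 without weekly 4 (limma adjusted p = 2.2e-05), with 72.2, 45.2, 122, 18.0 and 187 CPM in weekly libraries 1 to 5 against a vehicle range of 30.7 to 38.2 CPM. Daily treatment lowered 2 of 15 (median -0.32), the droplet coat gene Plin1 by -1.22 (limma adjusted p = 0.0248) and the lipase inhibitor G0s2 by -1.22 (limma adjusted p = 0.0078). Cidec measured -1.32 with daily treatment, below all vehicle values in 5 of 5 libraries (limma adjusted p = 0.0732). The count lowered by daily treatment was 7 of 15 without weekly 4 in the shared fit, with Cidec, Pnpla2, Abhd5, Lipe and Mgll added, and 1 of 15, G0s2, without daily 3.

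Heat can also be made without UCP1, by creatine or calcium cycling. Of 12 such genes tested, 2 rose with weekly treatment, beside 6.99% of all genes, and the median was 0.13. They were the mitochondrial creatine kinase Ckmt2 (0.66, limma adjusted p = 0.0167) and the phosphatase Alpl (2.07, limma adjusted p = 0.00002). Ckb, the cytosolic creatine kinase of beige fat, measured 1.12 (limma adjusted p = 0.0598). It stood at 106 CPM in weekly 4, where the rest of the group measured 11.5 to 22.8 CPM. Without weekly 4 it measured 0.61 and was called (limma adjusted p = 0.0257), as was Ryr2, for a count of 4 of 12. Daily treatment raised Alpl by 1.65 (limma adjusted p = 0.0004) and lowered Sln, sarcolipin, which uncouples the muscle calcium pump, by -0.80 (limma adjusted p = 0.0238), with a median of -0.05, and without weekly 4 in the shared fit Atp2a2 was called lower too.

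The summed level of white adipocyte markers matched Ucp1 in its highest and lowest weekly library, but not in every library between. In weekly against vehicle 7 of 15 rose and 0 fell (median 0.94), and in daily against vehicle 0 rose and 7 fell (median -1.14). Over all genes 6.99% rose and 1.07% fell with weekly treatment, and 1.76% rose and 2.13% fell with daily treatment. The 7 that rose became 3 with TMM scaling (Adipoq, Lep and Cebpa) and 14 without weekly 4, and the 7 that fell became 4 without daily 3 and 13 without weekly 4. The summed level of all 15 was 2186 to 2364 CPM in vehicle libraries, 2109 to 5896 CPM in weekly libraries and 950.4 to 1676 CPM in daily libraries, and none of the 15 was at 0 in any group. Among the weekly libraries the sum was 2982, 2278, 3732, 2109 and 5896 CPM in replicates 1 to 5, highest in weekly 5 and lowest in weekly 4, as for Ucp1. The sum of weekly 2 lay inside the vehicle range, although its Ucp1 exceeded all vehicle values. Weekly 3 exceeded weekly 1, the reverse of Ucp1. Adipoq measured 49.0, 48.6 and 43.5 CPM in weekly 1, 2 and 4, where Ucp1 measured 77.8, 9.77 and 1.44 CPM. Adiponectin (Adipoq), made by adipocytes, rose from 29.9 to 82.5 CPM with weekly treatment (1.23, SE 0.29, limma adjusted p = 0.0112) and fell to 12.3 CPM with daily treatment (-1.33, SE 0.29, limma adjusted p = 0.00976). The adipokine Lep rose by 1.22 with weekly treatment (limma adjusted p = 0.0143), and with daily treatment Cfd, adipsin, fell by -1.65 (limma adjusted p = 0.00055) and Retn, resistin, by -1.69 (limma adjusted p = 0.00472). This list shares Cidec, Plin1 and Lipe with the lipid droplet list. In bulk muscle, fewer cells of a type and less RNA per cell cannot be told apart, and the part of adipocyte content in the weekly values of Ucp1 and Cidea was not tested.

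Skeletal muscle markers summed to 240548 to 245873 CPM in vehicle libraries, 199075 to 275220 CPM in weekly libraries and 141300 to 224554 CPM in daily libraries. Of 13 markers, 0 were called in weekly against vehicle (median 0.02), and 1, the slow myosin Myh7, was called lower in daily against vehicle (median -0.31), a call that ended with TMM scaling and without daily 3. Without weekly 4, Myh7 was called lower with weekly treatment, and Mylpf was called lower beside it with daily treatment. The lowest sum belonged to daily 3. Acta1, skeletal actin, measured -0.50 with daily treatment and Ckm, muscle creatine kinase, -0.31, neither called (limma adjusted p = 0.268 and 0.47).

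Several calls of list genes ended on leaving out 1 library. Over all genes, the 1133 calls of weekly against vehicle became 645 to 684 without any 1 vehicle library. Such losses are therefore not particular to these genes. In weekly against vehicle, the calls of Adrb3, Mgll and Plin1 ended on leaving out any 1 vehicle library, weekly 3 or weekly 5, with limma adjusted p up to 0.102, 0.0839 and 0.0969. Those of Prkar2b and Pprc1 ended without weekly 3 or weekly 5 or some vehicle libraries, those of Kcnk3 and Slc25a5 without weekly 5 or 1 vehicle library, and those of Ppara and Cebpa without weekly 5. In daily against vehicle, the calls of Scd2 and Plin1 ended without any 1 vehicle library and without several daily libraries, and that of Sln without daily 4 or daily 5 or some vehicle libraries. With the replicate number as a block, Scd2 in daily against vehicle was also no longer called. Otop1, Ntrk3, Rgs2, Elovl6, Thrsp, Scd1, Alpl, Plin2 and Adipoq remained called in weekly against vehicle on leaving out any 1 library, as did Ppargc1b, Adipoq, Alpl and Hr in daily against vehicle. Without daily 3 in the shared fit, the weekly calls went from 2 to 5 of 16 PGC-1 genes, from 4 to 5 of 12 adrenergic genes, from 1 to 2 of 7 carriers, from 1 to 2 of 10 thyroid hormone genes, from 5 to 6 of 15 lipid droplet genes and from 7 to 8 of 15 white adipocyte markers, and Tbx15 was called lower.

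**Figure D3:**
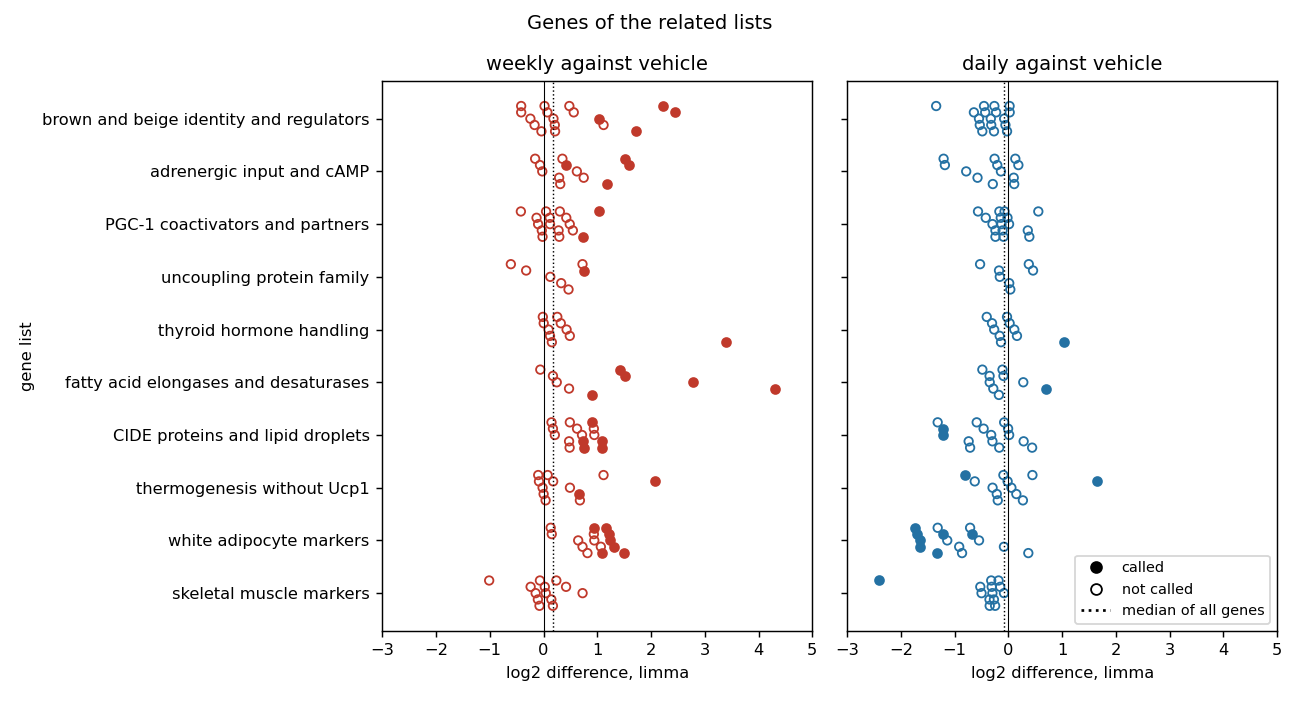
Difference in log2(CPM + 0.5) from the limma fit (horizontal axis) for each tested gene of 10 related lists, weekly against vehicle at left and daily against vehicle at right; filled points have an adjusted p under 0.05, the solid line is 0 and the dotted line is the median of all genes. With weekly treatment 7 of 15 white adipocyte markers rose, and with daily treatment 7 of 15 fell.

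Relating each gene to Adipoq within a library gives a measure that does not depend on library scaling, although Adipoq itself changed with both treatments. Per 100 Adipoq reads, Ucp1 gave 0.369 to 2.44 reads in vehicle libraries. Weekly libraries 1 to 5 gave 159, 20.1, 45.1, 3.31 and 134, all above vehicle, so the highest was weekly 1 and no longer weekly 5. Daily libraries gave 7.14 to 18.2, also all above vehicle and above weekly 4.

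Cidea gave 4.47 to 12.5 reads per 100 Adipoq reads in vehicle, 115, 18.4, 40.5, 5.79 and 58.7 in weekly libraries 1 to 5, and 2.27 to 16.1 in daily libraries. Weekly 4 was again within the vehicle range. Dio2 gave 18.1 to 33.9 in vehicle and 17.1 to 31.6 in weekly libraries, which overlapped, and 52.3 to 116 in daily libraries, all above the other groups. Ppargc1b gave 82.1 to 90.8 in vehicle, 17.4 to 77.9 in weekly, all below vehicle, and 74.5 to 160 in daily libraries. Relative to Adipoq, the weekly values of Ucp1, and of Cidea outside weekly 4, lay above vehicle, and those of Dio2 overlapped with vehicle. The weekly 4 ratio of Ucp1 rests on 4 reads. Muscle fibres also express Dio2 and Ppargc1b, so their ratios to Adipoq are not levels per adipocyte. These ratios are descriptions without a test, and the part of adipocyte content was not tested.

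**Figure D4:**
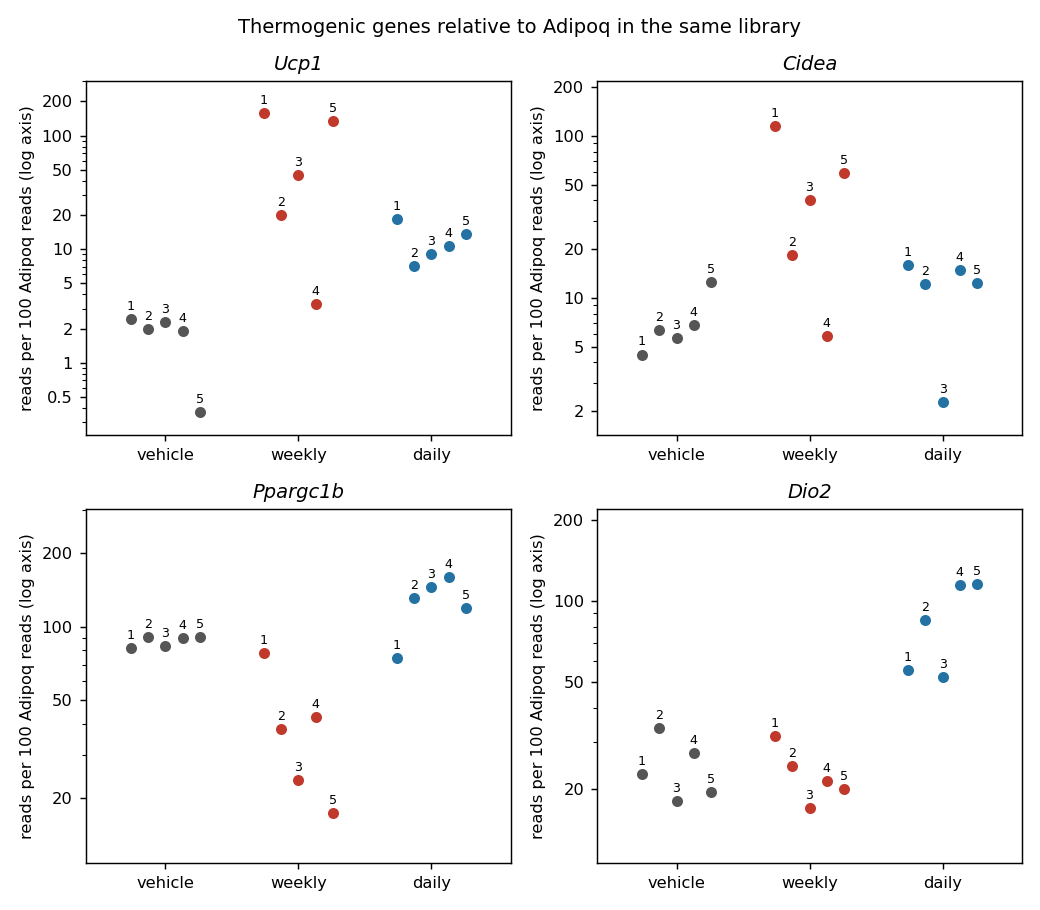
Reads of each thermogenic gene per 100 Adipoq reads of the same library (vertical log axis), by group, with replicate numbers. Ucp1 lies at 0.369 to 2.44 in vehicle and at 3.31 to 159 in weekly libraries, while the weekly Dio2 ratios, 17.1 to 31.6, overlap those of vehicle, 18.1 to 33.9.

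The genes with the most similar profile were ranked over the 10 weekly and daily libraries by the root mean square difference in log2(CPM + 0.5) from the vehicle mean, among 11440 genes. For Ucp1 they were Elovl6 (0.90), Thrsp (1.48) and Acly, ATP citrate lyase (1.49), compared with 1.57 for Cidea. For Cidea they were Ppp1r3b, a glycogen-targeting phosphatase subunit (0.56), Scd1 (0.66) and Thrsp (0.68). For Dio2 the closest were Tlcd1 (0.31), Fah, the last enzyme of tyrosine breakdown (0.31), and Cnnm2 (0.33). For Ppargc1b they were Lurap1l (0.25), Lzts1 (0.26) and Myoz2, a Z-disc protein of slow muscle (0.27). Genes that vary little lie close to many others on this scale, so the small distances of Ppargc1b and Dio2 are not set against those of Ucp1.

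Because these genes were picked for their profile, their levels are given without a test. Mean Acly was 28.9 CPM in vehicle, 431 CPM in weekly and 33.7 CPM in daily libraries, and mean Ppp1r3b was 2.04, 24.8 and 1.53 CPM. Mean Tlcd1, close to Dio2, was 3.64, 8.78 and 4.32 CPM in the same order of groups. Mean Myoz2, close to Ppargc1b, was 102, 91.1 and 58.8 CPM.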

How the data were processed

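Total RNA from about 30 mg of quadriceps was sequenced from a stranded total RNA library as paired 150 bp reads, per the labels' protocols. The submitters' processing notes name TopHat2 2.1.0 for alignment, the build mm10 (GRCm38), HTSeq for counting and edgeR. The authors deposited 1 table of CPM values (reads scaled to a common library total), although the labels call the unit RPKM: 222090 of 222090 values correspond to a whole number of reads, within 0.01 reads, with 1 step per library for every gene. The table held 14806 features, of which 534 without a gene name were left out, and 21 symbols turned into dates.

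Values were analysed as log2(CPM + 0.5) with limma 3.58.1 (R 4.3.3), with group as the only term over 15 libraries. Genes with at least 1 CPM in at least 5 libraries were kept (14059, with 213 removed), with Benjamini-Hochberg adjustment over all of them and calls at an adjusted p below 0.05. Single genes were compared between daily and vehicle by exact two-sided permutation over 252 splits. This test treats the libraries as exchangeable, whereas the spread differed between groups. Means ± SD are over 5 libraries. Alternatives were other pseudocounts and filters, TMM scaling, edgeR 4.0.16 and DESeq2 1.42.0 on the recovered reads, sample quality weights, a replicate block, the 2 compared groups alone and leaving out each library. The scripts were tested on simulated counts.

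The members and lists were chosen with earlier results of these data known. Genes were named by rule: the members, the 3 genes of each list (not the muscle markers) with the smallest limma p for weekly and the 2 for daily against vehicle, 11 fixed genes, and the 3 genes most like each member (mean of at least 2 CPM, no predicted genes). Others named to complete a count of 5 or fewer were chosen after their values were seen. Positions come from GENCODE M21 and promoter windows from RefSeq. Windows on chromosome 18, which holds Cidea and Ppargc1b, were left out of both the display and the background.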

Additional observations from a re-analysis of the deposited data

Results flagged for a closer look

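Among 12 groups of 5 libraries (4 thermogenic genes in 3 groups), 2 held a library whose gap to the nearest other exceeded 0.71 of the group's range, where chance gives about 5% of groups. Both were vehicle 5, the lowest for Ucp1 at 0.113 CPM (gap 0.713 of the range) and the highest for Cidea at 3.84 CPM (gap 0.740 of the range). The Ucp1 value is a single read.

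For 29 named genes outside the set, the effect of daily treatment differed from that of weekly treatment in the limma test of that difference (adjusted p under 0.05). The differences, daily minus weekly in log2(CPM + 0.5), were all negative. Many of these genes were chosen by their weekly p or by likeness to members that are high in weekly libraries, which favours this direction. Acly, Ppp1r3b, Tlcd1, Cnnm2 and Lzts1 were named only by likeness over these same libraries. For these genes the test was not independent of the choice, and nothing is read from their passing it. Over all genes tested 8.24% were lower in the same comparison. With TMM scaling Hr, not among the 29, was called higher (0.81). Among lipogenic and lipid droplet genes they were -4.03 for Elovl6, -3.54 for Thrsp, -3.21 for Acly, -3.20 for Ppp1r3b, -3.14 for Scd1, -2.26 for Cidec, -2.30 for Plin1, -1.84 for G0s2, -1.49 for Mgll, -1.39 for Plin2, -0.72 for Scd2 and -0.66 for Fads1. Among white adipocyte genes they were -2.56 for Adipoq, -2.51 for Retn, -2.29 for Cfd and -1.48 for Cebpa. Among brown fat and adrenergic genes they were -3.07 for Kcnk3, -2.80 for Prkar2b, -2.71 for Otop1, -2.69 for Adrb3, -2.25 for Ntrk3, -0.997 for Rgs2 and -0.55 for Cpt1b. The remaining values were -3.20 for Ppp1r3b, -0.93 for Tlcd1, -0.91 for Cnnm2 and -0.91 for Slc25a5, and further -0.84 for Lzts1, -0.80 for Sln and -0.68 for Ckmt2. The median of all genes in this comparison was -0.24.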

How the results depend on the processing

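Counts of called genes depended on the setting more than the members did. Weekly against vehicle had 1133 calls, against 1904 with DESeq2, 5690 with sample quality weights, 2403 with TMM scaling without weekly 4, 3340 with neither weekly 4 nor daily 3, and 645 to 2251 on leaving out 1 library (2251 without daily 3, 676 without weekly 5, 710 without weekly 3, 645 to 684 without any 1 vehicle library). Daily against vehicle had 547, against 1273 with TMM scaling, 1665 with only these 2 groups, 1332 with edgeR, 1596 with DESeq2, 3532 with weights, 2996 with TMM scaling without weekly 4, 2422 with neither library, and 347 to 1478 on leaving out 1 (1478 without weekly 4, 847 without daily 3, 347 to 355 without vehicle 2, 3, 4 or 5). Daily against weekly had 1227, against 662 with TMM scaling, 228 with 2 groups, 747 with edgeR, 3449 with weights, 1884 with TMM scaling without weekly 4, 2044 with neither, and 521 to 1888 on leaving out 1 (1888 without weekly 4, 521 without weekly 5, 611 without weekly 3, 651 without daily 5, 756 without daily 3). The share of calls that were higher was 86.8%, 45.3% and 5.54%, and 57.7%, 61.6% and 43.8% with TMM scaling. The cause of these shifts was not tested. TMM scaling without weekly 4, and leaving out both weekly 4 and daily 3, were chosen after seeing the data.

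Ucp1 in weekly against vehicle measured 6.87 with edgeR and 6.87 with DESeq2, which do not add a pseudocount of 0.5. In daily against vehicle, Ucp1 passed with sample quality weights (1.10, adjusted p = 0.0205), as did Dio2 (0.63, adjusted p = 0.0047) and, with neither weekly 4 nor daily 3, Dio2 again (0.69). In the exact permutation test, leaving out 1 library gave 0.60 to 1.06 for Ucp1 (0.70 without vehicle 5, p = 0.0714) and 0.23 to 0.69 for Dio2 (0.69 without daily 3, p = 0.0159). Ucp1 had no value with only those 2 groups, since it did not pass the filter there. Ppargc1b remained called lower in daily against vehicle under every alternative run. Of the 50 other named genes, 26, 10 and 29 were called in the 3 comparisons, and 16, 6 and 21 in every alternative as well. In daily against weekly, the calls of Cpt1b, Cnnm2, Fads1, Lzts1, Scd2 and Sln ended with TMM scaling, with edgeR, with only these 2 groups and without at least 1 single library, and those of Ckmt2 with TMM scaling, edgeR and 2 groups, and of Tlcd1 with TMM scaling, 2 groups and without weekly 5.

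With the replicate number as a block the counts were 1096, 494 and 985, and no member's call changed; of the other named genes, Scd2 in daily against vehicle and Fads1 in daily against weekly were no longer called. Same-numbered libraries did not deviate together (0 of 5, 0 of 5 and 1 of 5 correlations over 0.1), so the numbers do not pair the libraries. Depth limits Ucp1 most: its vehicle values rest on 1 to 6 reads.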
